A study of Mus musculus with 9 samples.

Results

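The cells described here are inhibitory neurons of the mouse central amygdala that were positive for Sst and negative for Prkcd and that were also positive for Crh, Tac2 or Nts. The members were chosen by measured levels. A gene was called positive in a cell at 1 or more counts in every 10000 gene counts of that cell, which equals a level of 100 CPM (counts scaled to a total of 1000000), and inhibitory neurons were positive for any of Gad1, Gad2 and Slc32a1 while negative for Slc17a6 and Slc17a7. By this rule 69 of the 829 cells of the series were members, or 69 of its 810 inhibitory neurons (8.52%). The class was set from the same counts that are described, so the levels of the genes in the rule are given as a description and were not tested. Of the 5 marker genes, Pdyn, which encodes the dynorphin precursor, is the only one that the rule did not use, and it was positive in 58 of the 69 cells (84.1%).

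The study profiled single cells of the central amygdala by RNA sequencing in order to examine its inhibitory neurons. Cells were microdissected, dissociated and pooled over acute brain slices of B6 mice with the genotype WT, with no treatment named, and they form 9 samples of 1 group that carry 3 animal numbers and 3 date fields in all combinations. The sources used here do not give whether each sample came from its own animal, so the p-values cover the spread between the samples and no more. The members were compared within samples with 2 other classes. The first held the 56 inhibitory neurons that were positive for Sst, negative for Prkcd and negative for Crh, Tac2 and Nts, called Sst cells without the 3 peptide genes. The second held the 76 inhibitory neurons that were positive for Crh, Tac2 or Nts and negative for both Sst and Prkcd, called peptide cells without Sst.

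Sst, Crh, Tac2, Nts and Pdyn each encode a precursor protein that is cut into peptides, which neurons store in dense-core granules and release beside a fast transmitter. Somatostatin acts through inhibitory receptors, corticotropin-releasing hormone and neurotensin mostly excite the cells that carry their receptors, neurokinin B comes from Tac2, and dynorphin acts on the kappa opioid receptor. In the central amygdala, a largely GABAergic nucleus that takes part in fear, pain and feeding, these genes mark overlapping groups of neurons, and Prkcd marks a group that is largely separate from the Sst neurons.

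The promoters of 4 of the marker genes are shown because the class rests on several precursor genes that were read in the same cells. The 250 bases before the start site are given 5′ to 3′ as in RefSeq (GRCm38.p6), with matches to TGACNTCA in capitals, a motif that holds the cyclic AMP response element TGACGTCA and that was chosen after the sequences had been seen. Both strands were searched over 300 bases, from 250 before to 50 after the start.
Sst (chr16:23890845-23891094, minus strand): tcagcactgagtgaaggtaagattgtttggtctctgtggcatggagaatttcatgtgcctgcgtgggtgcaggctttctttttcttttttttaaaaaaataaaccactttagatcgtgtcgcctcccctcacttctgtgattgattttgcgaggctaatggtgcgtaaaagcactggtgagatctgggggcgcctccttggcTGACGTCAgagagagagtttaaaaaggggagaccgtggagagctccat
Nts (chr10:102490419-102490668, minus strand): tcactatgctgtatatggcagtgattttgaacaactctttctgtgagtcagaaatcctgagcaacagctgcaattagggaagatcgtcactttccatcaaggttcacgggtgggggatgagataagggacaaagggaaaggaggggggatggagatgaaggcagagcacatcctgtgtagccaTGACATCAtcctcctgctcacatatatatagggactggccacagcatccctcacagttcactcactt
Tac2 (chr10:127724228-127724477, plus strand): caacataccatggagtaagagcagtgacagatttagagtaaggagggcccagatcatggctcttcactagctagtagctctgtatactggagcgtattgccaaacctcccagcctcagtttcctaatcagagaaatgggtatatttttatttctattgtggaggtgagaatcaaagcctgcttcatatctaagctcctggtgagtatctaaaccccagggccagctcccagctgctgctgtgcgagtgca
Pdyn (chr2:129699939-129700188, minus strand): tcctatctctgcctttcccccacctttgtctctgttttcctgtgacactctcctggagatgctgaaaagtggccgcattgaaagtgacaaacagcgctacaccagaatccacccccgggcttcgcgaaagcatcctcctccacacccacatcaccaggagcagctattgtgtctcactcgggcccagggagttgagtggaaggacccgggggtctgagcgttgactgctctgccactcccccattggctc
The Sst promoter held TGACGTCA with its first base at position -48 from the start, and the Nts promoter held TGACATCA with its first base at position -67. The windows of Tac2 and of both Pdyn start sites held neither motif. Over all 32851 promoters of the table, 1.79% held TGACGTCA and 8.83% held TGACNTCA, which takes in the first motif. The TATA box TATAAA was in none of the windows searched and in 13.6% of all promoters. Crh is named only.

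The gene counts summed to between 8522750 and 22730327 per sample. The median member cell had 129325 gene counts and 4575 detected genes, against 122668.5 counts and 4507 genes in Sst cells without the 3 peptide genes, 176088 counts and 5118.5 genes in peptide cells without Sst, and 126576 counts and 4527.5 genes over all inhibitory neurons. In the 6 samples with at least 3 cells of each Sst class, the median count per cell was 11775 higher in members (exact two-sided sign-flip permutation test over samples, p = 0.656), and without sample 4 the difference was -686. Thinned to 50000 counts per cell, members had 75.0 more detected genes (exact permutation, p = 0.812). Of 376 cell barcodes, 368 occurred in more than 1 sample. Among genes of other cell types, the excitatory neuron list summed to 0 CPM in members, with all 8 of its genes at 0, while 2 of the 8 had counts in each of the other classes. The list holds Slc17a6 and Slc17a7, and the rule kept cells positive for either out of all these classes, so their low levels were set in advance. Of 10 oligodendrocyte genes 7 had counts in members, with summed levels of 39.8 to 173 CPM over samples, against 0 to 178 CPM in Sst cells without the 3 peptide genes and 25.6 to 109 CPM in peptide cells without Sst. Ermn, Mal and Mog were at 0 in members. Counts in members were found for 3 of 9 astrocyte genes (79.6 to 523 CPM summed over the list), 3 of 6 endothelial genes (0.472 to 183 CPM), 2 of 7 microglial genes (0 to 69.1 CPM) and 1 of 5 oligodendrocyte precursor genes (0 to 18.9 CPM), while the astrocyte genes Aqp4, Gfap and Gja1, the microglial genes C1qa and P2ry12, the endothelial gene Cldn5 and the precursor gene Pdgfra were at 0.

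Members were found in all 9 samples. They numbered 14, 6, 9, 7, 10, 7, 2, 8 and 6 in samples 1 to 9, and their share of the inhibitory neurons was 8.41% ± 3.36 (SD, n = 9), from 2.44% in sample 7 through a median of 7.78% to 14.7% in sample 1. As a share of the Sst-positive, Prkcd-negative neurons they made up 57.7% ± 21.7 (SD, n = 9), lowest in sample 7 at 18.2% and highest in sample 9 at 85.7%. The makeup of members varied between samples. Pooled by date field, cells positive for all 3 peptide genes were 9 of 29 members (31.0%) in the first. They were 3 of 24 (12.5%) in the second and 11 of 16 (68.8%) in the third. Within the third they were 1 of 2 members in sample 7, 6 of 8 in sample 8 and 4 of 6 in sample 9. In sample 3, of the first date field, they were 4 of 9. The median count of members was 120207 in the first date field, 189609.5 in the second and 98279 in the third, and the part of depth in these shares was not tested. Over the 3 animal numbers the members were 23, 24 and 22 cells, at 8.46%, 8.86% and 8.24% of the inhibitory neurons.

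**Figure D1:**
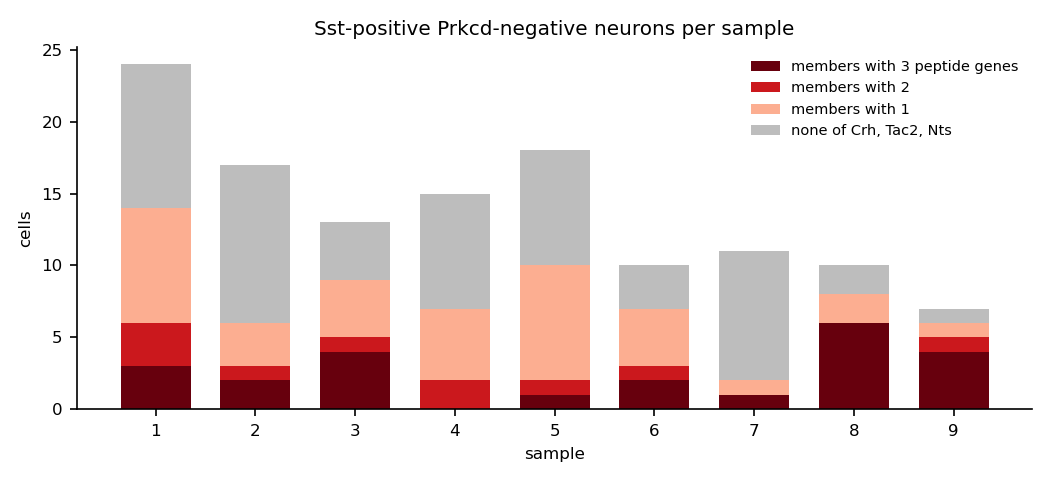
Number of Sst-positive, Prkcd-negative inhibitory neurons in samples 1 to 9 (vertical axis, cells), as stacked bars of members positive for 3, 2 or 1 of Crh, Tac2 and Nts and of cells positive for none. Members numbered 14 in sample 1 and 2 in sample 7, and cells positive for all 3 were most numerous in sample 8, at 6.

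The most frequent combination of the peptide genes was all 3 together. Crh, Tac2 and Nts were positive in the same cell in 23 of the 69 members (33.3%), and these cells came from 8 samples. Nts was the only one of the 3 in 18 cells (26.1%), Tac2 in 14 cells (20.3%) and Crh in 4 cells, so a member positive for Crh alone was rare. The pairs were few, with 4 cells positive for Tac2 and Nts, 3 for Crh and Tac2 and 3 for Crh and Nts. Of the 33 Crh-positive members 26 (78.8%) were positive for Tac2 and 26 for Nts. Of the 44 Tac2-positive members 26 (59.1%) were positive for Crh and 27 (61.4%) for Nts, and of the 48 Nts-positive members 26 (54.2%) were positive for Crh and 27 (56.3%) for Tac2. Crh marked the smallest of the 3 sets.

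The level of each peptide gene was highest in the cells that had all 3. In these 23 cells the median level per cell was 3451 CPM for Tac2 (101 to 5683), 2117 CPM for Nts (323 to 6127) and 1000 CPM for Crh (106 to 2721). In cells positive for 1 of the 3, the median was 804 CPM for Tac2 in the Tac2-only cells, 558 CPM for Nts in the Nts-only cells and 369 CPM for Crh in the 4 Crh-only cells. The ranges overlapped for each gene, and since the cells were sorted by these levels the order is a description. Sst did not follow the number of peptide genes: its median was 3221 CPM in cells with 3, 4590 CPM in the 10 cells with 2, 4083 CPM in the 36 cells with 1 and 1867 CPM in the 56 cells with none.

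In counts summed over the members of each sample, Sst ranged from 2238 CPM through a median of 4050 to 5315 CPM, against a range from 643 through 2985 to 8206 CPM in Sst cells without the 3 peptide genes. The 2 classes overlapped in Sst. Nts ranged from 398 CPM through 988 to 2467 CPM in members, Tac2 from 31.8 through 1286 to 2887 CPM, and Crh from 47.7 through 387 to 1083 CPM. Sample 7, which held 2 members, gave the lowest level of Crh, Tac2 and Nts, and sample 8 the highest of Crh and Tac2.

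For the highest of Crh, Tac2 and Nts in a cell, the class border at 100 CPM fell in a gap. The highest of Crh, Tac2 and Nts in a member was 122, 125 and 152 CPM in the 3 cells just inside, and 51 of the 69 members lay above 5 times the threshold. The Sst cells just outside had 45.4, 41.9 and 32.1 CPM, and 26 of the 56 had no count of the 3 genes. At the Sst border cells lay closer to 100 CPM. The lowest Sst levels of members were 105 and 117 CPM, and the highest Sst levels of peptide cells without Sst were 85.5 and 41.3 CPM. Single peptide genes also had cells near the border. Crh-only cells reached 75.7 CPM of Tac2 and 77.7 CPM of Nts, and cells with all 3 went down to 101 CPM of Tac2 and 106 CPM of Crh. A further 23 Sst-positive neurons were positive for Prkcd, of which 17 were positive for a peptide gene, and these entered no class. Among the members 23 had a count of Prkcd, the highest at 84.3 CPM.

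**Figure D2:**
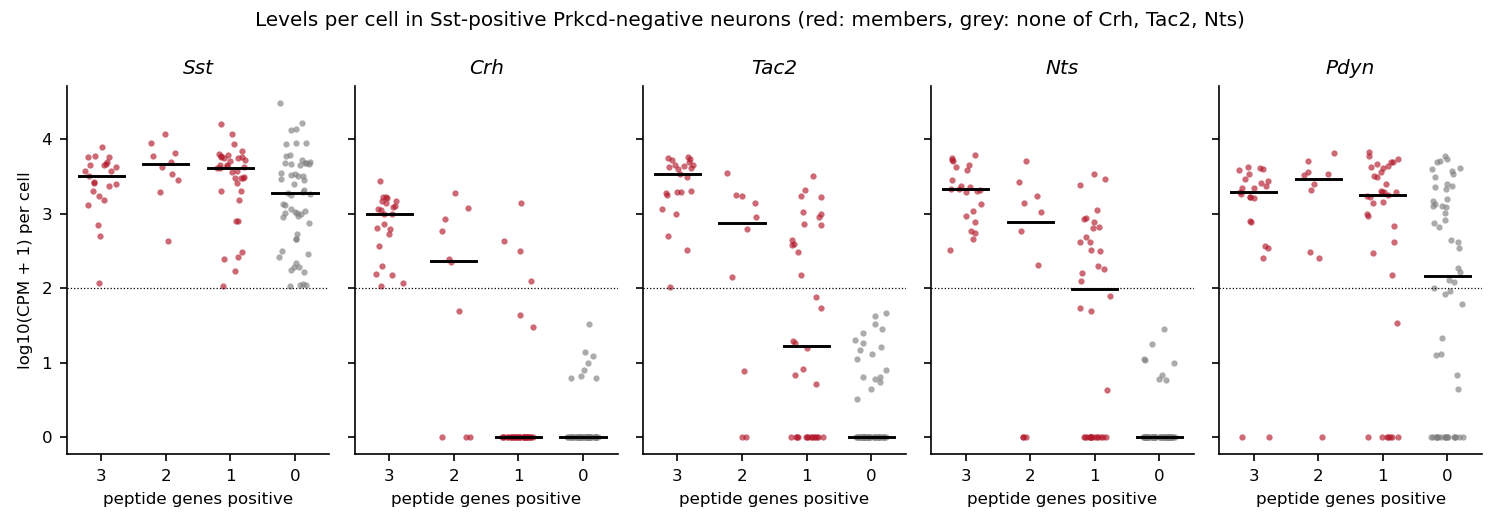
Level per cell of Sst, Crh, Tac2, Nts and Pdyn, as log10(CPM + 1), in Sst cells positive for 3, 2, 1 or 0 of Crh, Tac2 and Nts (red points, members, grey points, cells with none, black bars, medians, dotted line, the 100 CPM threshold). The Pdyn median was 1935 CPM in cells with 3, 2909 CPM with 2, 1766 CPM with 1 and 147 CPM with none.

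Pdyn, the dynorphin precursor gene, was positive more often in members than in Sst cells without the 3 peptide genes in each of the 6 samples compared, but no peptide gene passed the test after adjustment. The share of Pdyn-positive cells was 86.8% ± 17.2 in members and 57.1% ± 17.4 in Sst cells without the 3 peptide genes (SD, n = 6 samples), a difference of 29.6 points. Its exact two-sided sign-flip permutation p was 0.03125, the smallest that 6 samples allow, and 0.141 after Benjamini-Hochberg adjustment over the 9 peptide genes tested, of which 2 had an unadjusted p under 0.05. A gene that stood alone at that smallest p could not pass after adjustment, so these share tests could pass only many genes together. In single cells the share positive for Pdyn was 91.3% with 3 peptide genes, 90.0% with 2, 77.8% with 1 and 55.4% with none. Among the 320 Prkcd-positive, Sst-negative neurons, at a median of 120150.5 counts, 3.13% were positive. By date field, Pdyn was positive in 86.2%, 87.5% and 75.0% of members, against 68.0%, 47.4% and 41.7% of Sst cells without the 3 peptide genes, given in the order of the date fields.

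The summed level of Pdyn did not separate the same classes. It was 1952, 2957, 2490, 829, 2928 and 2405 CPM in the members of samples 1 to 6, against 1431, 1413, 3151, 1786, 390 and 574 CPM in Sst cells without the 3 peptide genes. Members were higher in 4 of 6 samples, lower in samples 3 and 4, and the classes overlapped. The fitted log2 fold change was 0.84 ± 0.44 (SE, edgeR quasi-likelihood test with Benjamini-Hochberg adjustment, adjusted p = 0.999).

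Penk, the enkephalin precursor gene, showed the same pattern in shares. It was positive in 82.5% ± 12.9 of members and 63.4% ± 8.08 of Sst cells without the 3 peptide genes (SD, n = 6), higher in 6 of 6 samples (exact sign-flip permutation p = 0.03125, adjusted p = 0.141). Its summed level, 335 to 2373 CPM in members and 198 to 2302 CPM in Sst cells without the 3 peptide genes, overlapped between the classes. Penk was positive in 82.2% of the Prkcd-positive, Sst-negative neurons.

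Pnoc, the nociceptin precursor gene, was positive in 25.7% ± 18.0 of members and 3.60% ± 5.68 of Sst cells without the 3 peptide genes (SD, n = 6), higher in 5 of 6 samples (exact sign-flip permutation p = 0.0625, adjusted p = 0.141). Pooled over all 9 samples this was 15 of 69 cells, against 3 of 56. Tac1, the substance P precursor gene, ran the other way at 4.52% ± 8.10 in members and 29.4% ± 24.9 in Sst cells without the 3 peptide genes (SD, n = 6), lower in 5 of 6 samples with the same p and adjusted p. Cartpt, the precursor of the CART peptides, was positive in 3 members (4.3%), against 4 Sst cells without the 3 peptide genes (7.14%), 19 peptide cells without Sst (25.0%) and 62.5% of the Prkcd-positive, Sst-negative neurons. Npy, the neuropeptide Y gene, was positive in 2 members and 4 Sst cells without the 3 peptide genes. Its summed level there reached 14170 CPM in sample 5 and 4589 CPM in sample 2 and was 445 CPM at most in members of samples 1 to 6, and the gene did not pass the filter on low counts.

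**Figure D3:**
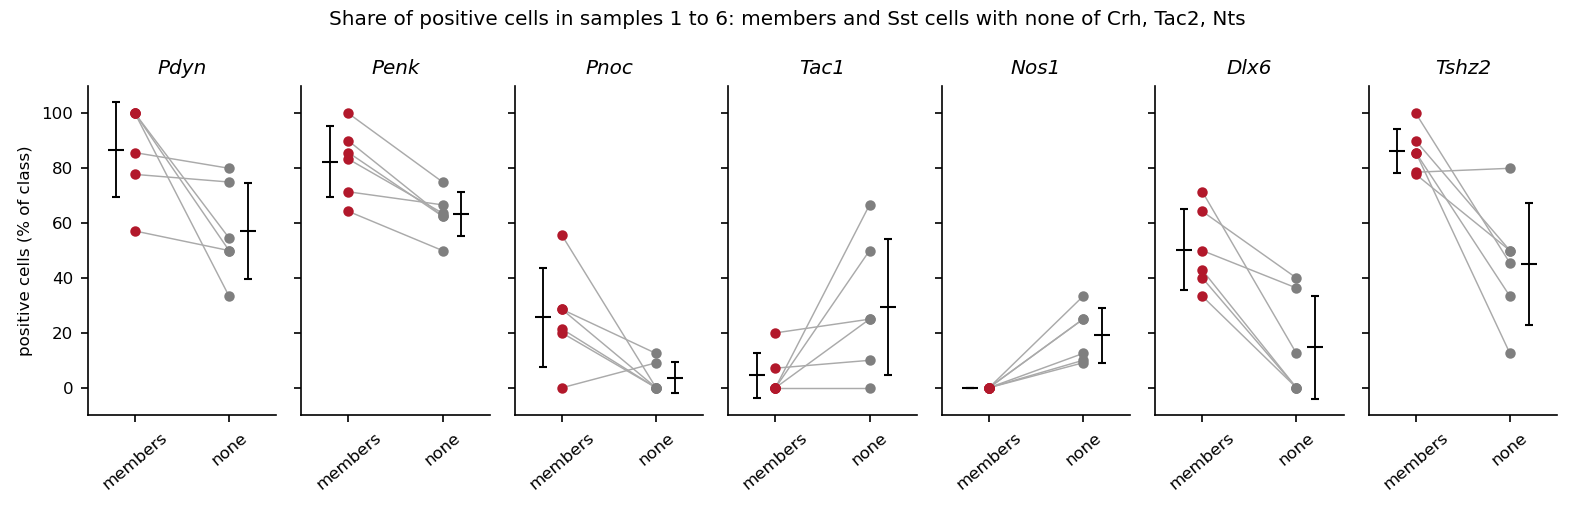
Share of positive cells (vertical axis, percent) for 7 genes in members (left, red) and Sst cells without the 3 peptide genes (right, grey), with lines joining the classes of the same sample, samples 1 to 6, and black marks for the mean ± SD. Pdyn, Penk and Dlx6 were higher in members in 6 of 6 samples, and no share tested passed after adjustment. The Nos1 share was not tested.

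Vipr2 and Igf1, from the receptor and peptide lists, had no count at all in the Sst cells without the 3 peptide genes, and both were picked out after their values had been seen. Vipr2, which encodes a receptor for the peptides VIP and PACAP, had 345 counts in members and was positive in 11 of them (15.9%) over 6 samples, against 0 of 56 Sst cells without the 3 peptide genes, so that shares up to 5.36% are allowed there. With a floor of 3 counts set for the whole class, its summed level was at least 89.7-fold higher in members. Among the Prkcd-positive, Sst-negative neurons 0.94% were positive. Igf1, the insulin-like growth factor gene, had 232 counts in members and was positive in 9 of them (13.0%) over 7 samples, against 0 of 56 Sst cells without the 3 peptide genes and 0 of 76 peptide cells without Sst, so that shares up to 3.95% are allowed in the second. Its level was at least 60.3-fold higher in members than in Sst cells without the 3 peptide genes and at least 111-fold higher than in peptide cells without Sst. Counting intervals and floors pool the counts of a class, so they cover counting error at most and leave out the spread between samples. It is not known whether PCR copies were removed, and if copies remain the intervals and floors are too narrow. The upper limits of shares at 0 pool cells over samples and leave out the spread between samples. With 4 of 6 samples positive, the share of Igf1 gave an exact permutation p of 0.125 and an adjusted p of 0.188.

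Receptor genes of members were led by few genes. Ramp1, an accessory protein of the CGRP and related receptors, was positive in 43 members (62.3%), against 23 Sst cells without the 3 peptide genes (41.1%) and 27 peptide cells without Sst (35.5%). Htr2c, a serotonin receptor gene, was positive in 36 members (52.2%), against 20 (35.7%) Sst cells without the 3 peptide genes and 13 (17.1%) peptide cells without Sst. Oprl1, the nociceptin receptor gene, was positive in 16 members (23.2%), and Cnr1, the cannabinoid receptor gene, in 11 (15.9%). Adcyap1r1, the PACAP receptor gene, was positive in 2 members (2.9%), against 14 Sst cells without the 3 peptide genes (25.0%) and 23 peptide cells without Sst (30.3%). These shares are pooled over samples and were not tested, and the genes were picked out after their values had been seen.

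Among transcription factor genes, Bcl11b, Meis2 and Tshz2 were positive in most members, and none of 29 tested shares passed after adjustment (2 had an unadjusted p under 0.05). Bcl11b, a zinc finger gene of striatal and related projection neurons, was positive in 65 members (94.2%), and Meis2, a homeobox gene of the same lineages, in 58 (84.1%). Sst cells without the 3 peptide genes had similar mean shares over the 6 samples. These were 94.0% in members against 92.2% for Bcl11b, and 83.5% in members against 79.8% for Meis2. Dlx6, a homeobox gene of forebrain GABAergic neurons, was positive in 50.3% ± 14.8 of members and 14.8% ± 18.8 of Sst cells without the 3 peptide genes (SD, n = 6), higher in 6 of 6 samples (exact sign-flip permutation p = 0.03125, adjusted p = 0.453). Tshz2, a zinc finger homeobox gene, was positive in 86.3% ± 8.18 of members and 45.2% ± 22.2 of Sst cells without the 3 peptide genes (SD, n = 6), higher in 5 of 6 samples (exact sign-flip permutation p = 0.0625, adjusted p = 0.453). Dlx6 overlaps an antisense transcript and the strand of counting is not given, so reads of the 2 cannot be told apart. The genes named among these transcription factors and Pnoc were likewise picked out from the tested families by their values.

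The test across genes found no gene that passed between members and Sst cells without the 3 peptide genes. Samples 1 to 6 entered, with 53 members and 44 Sst cells without the 3 peptide genes, and of 8144 genes 0% were called higher and 0% lower by the edgeR quasi-likelihood test at a Benjamini-Hochberg adjusted p under 0.05. At an unadjusted p under 0.05 there were 220 higher and 113 lower, and DESeq2 called 47 higher and 41 lower. None of the tested genes of any list passed, with 0 of 6 peptide precursors, 0 of 10 peptide receptor genes, 0 of 22 transcription factors and 0 of 20 peptide processing genes. The median log2 fold change was 0.33 over the peptide precursors, -0.01 over the peptide receptors, 0.02 over the transcription factors and -0.26 over the peptide processing genes, against 0.10 over all genes tested.

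The gene nearest to the threshold was Nos1, which encodes neuronal nitric oxide synthase. In samples 1 to 6 it ranged from 0 through a median of 0.472 to 1.71 CPM in members, against 13.9, 107 and 545 CPM in Sst cells without the 3 peptide genes. The ranges of these samples did not overlap, and members were lower in 6 of 6 samples. Over all 9 samples the ranges overlapped, at 0 to 1.71 CPM in members and 0 to 545 CPM in Sst cells without the 3 peptide genes. The level in the second class came mostly from its 7 Nos1-positive cells, so it does not describe most cells of that class. The log2 fold change of Nos1 was -7.05 ± 0.96 (SE, edgeR quasi-likelihood test, adjusted p = 0.0691), and the gene passed, at 0.0173, when the genes that set the classes were counted in the Benjamini-Hochberg adjustment. Crh, Tac2 and Nts differ between these classes by the rule, and their low p-values lower the adjusted p of other genes. That pass is therefore no added support for Nos1. No member was Nos1-positive (0 of 69, so that shares up to 4.35% are allowed), against 7 of 56 Sst cells without the 3 peptide genes (12.5%) and 7 of 76 peptide cells without Sst (9.2%). These shares and the limit pool cells over samples and leave out the spread between samples.

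The 7 Nos1-positive cells came from 6 samples. Of them 4 were positive for Tac1, 2 for Npy and 2 for Chodl, a gene known with Nos1 and Npy from long-range Sst neurons of the cortex, while 0 members were positive for Chodl. Among the 49 Nos1-negative Sst cells without the 3 peptide genes, 5 were positive for Tac1, 2 for Npy and 5 for Chodl. Cortical interneuron markers as a list summed to 259 through a median of 529 to 1134 CPM in members, against 430, 964 and 15936 CPM in Sst cells without the 3 peptide genes. The ranges overlapped, and Npy alone reached 14170 CPM in sample 5 of the second class. With the 7 cells left out, sample 6 had too few Sst cells without the 3 peptide genes and dropped out as well. That fit held 5 samples, with 46 members and 35 Sst cells without the 3 peptide genes. In it 0 genes passed in either direction with edgeR, at 180 higher and 71 lower by unadjusted p. Of the same 49 cells, 27 were Pdyn-positive (55.1%), against 58 of 69 members. Nos1 and the genes of the next paragraph were singled out after their values had been seen.

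Other genes differed in mean level but did not pass. Tac1 ranged from 0 through a median of 0 to 79.7 CPM in members, against 1.14, 572 and 2233 CPM in Sst cells without the 3 peptide genes, lower in 6 of 6 samples (log2 fold change -6.57 ± 1.34, SE, edgeR adjusted p = 0.479). The ranges overlapped, and with a positive cell set at 1 count the log2 fold change of Tac1 was 1.87 (edgeR adjusted p = 1). Expi, a gene for a small secreted whey acidic protein family member, had 521 counts in members and 3 in Sst cells without the 3 peptide genes over samples 1 to 6, a ratio of summed levels of 130 (95% counting interval 44.4 to 635). It was higher in 6 of 6 samples at an edgeR adjusted p of 0.172. Expi was positive in a mean of 22.5% of members over the 9 samples (0% to 57.1%), so its level does not describe most members. In samples 1, 2, 3 and 6 it had 433 counts in members with 2 or 3 peptide genes and 29 in members with 1. Wfs1, which encodes a protein of the endoplasmic reticulum, averaged 1442 ± 321 CPM in members and 632 ± 406 CPM in Sst cells without the 3 peptide genes (SD, n = 6), higher in 6 of 6 samples at an edgeR adjusted p of 0.479. Ncdn, the neurochondrin gene, averaged 1821 ± 498 CPM in members and 743 ± 220 CPM in Sst cells without the 3 peptide genes (SD, n = 6), higher in 5 of 6 samples at the same adjusted p. The classes overlapped in Wfs1, at 1058 CPM or more in members and up to 1183 CPM in the other class, and in Ncdn, at 1000 CPM or more in members and up to 1044 CPM in the other class.

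**Figure D4:**
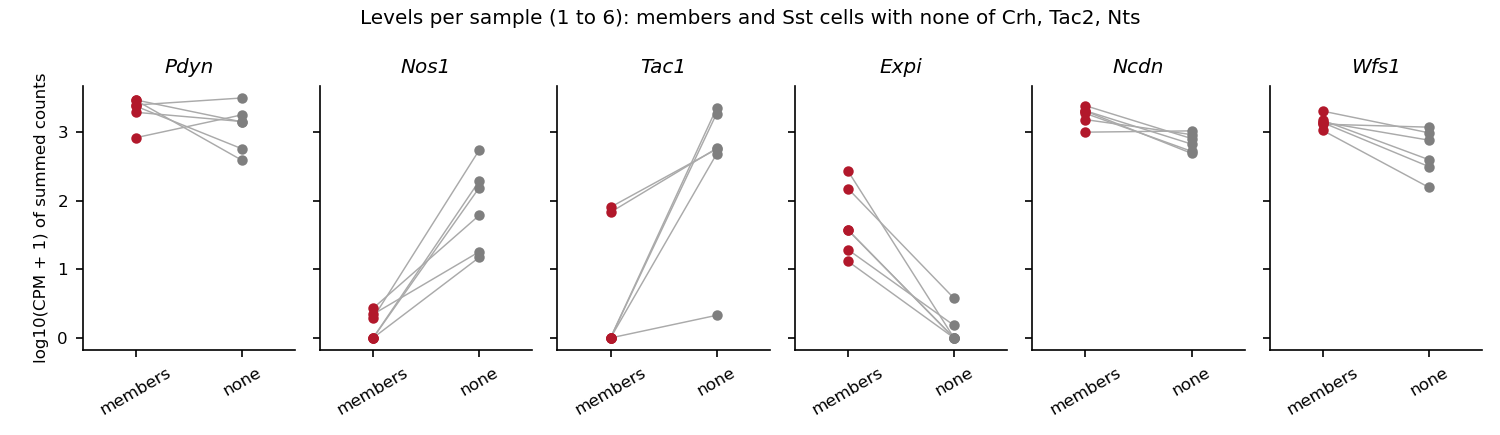
Level of 6 genes in counts summed per sample, as log10(CPM + 1), in members (red, left) and in Sst cells without the 3 peptide genes (grey, right) of samples 1 to 6, with lines joining the same sample. Nos1 reached 1.71 CPM at most in members and 13.9 CPM or more in the other class, while the Pdyn levels of the classes overlapped.

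Against peptide cells without Sst, members differed in many genes, and Pdyn was the only precursor gene tested that passed. All samples other than sample 7 entered, with 67 member cells and 71 peptide cells without Sst. Of 8244 genes tested with the edgeR quasi-likelihood test, 84 were higher in members (1.02%) and 72 were lower (0.873%) at a Benjamini-Hochberg adjusted p under 0.05. Both classes hold Crh, Tac2 or Nts by definition, and their levels are given as a description. Crh averaged 472 CPM in members and 150 CPM in peptide cells without Sst, Tac2 averaged 1495 CPM in members and 820 CPM in peptide cells without Sst, and Nts averaged 1392 CPM in members and 441 CPM in peptide cells without Sst. Sst itself averaged 3878 CPM in members and 8.44 CPM in peptide cells without Sst. These genes set the classes and were not tested.

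Pdyn was 1952, 2957, 2490, 829, 2928, 2405, 2301 and 1238 CPM in members of samples 1 to 6, 8 and 9, against 87.7, 51.3, 74.4, 64.6, 126, 543, 342 and 15.5 CPM in peptide cells without Sst. The lowest member level lay above the highest level of the other class. The log2 fold change was 4.30 ± 0.42 (SE, edgeR adjusted p = 0.000255, higher in 8 of 8 samples), and the adjusted p stayed at or under 0.00155 with any of the 8 samples left out. The other precursor genes of the list did not pass, at 1 higher and 0 lower of 7 tested. Penk had a log2 fold change of -0.75 ± 0.32 (SE, edgeR adjusted p = 0.317), and Cartpt one of -3.83 ± 1.04 (SE, edgeR adjusted p = 0.0833).

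Among genes of secretion, Pcsk2 and Ptprn were higher in members and Syt4 and Resp18 were lower. Of 20 peptide processing and granule genes tested, 2 were higher and 2 were lower, beside 1.02% and 0.873% of all genes, and the median log2 fold change was -0.03, against -0.04 over all genes tested. Pcsk2, the prohormone convertase that cuts peptide precursors, ranged from 88.7 through a median of 133 to 215 CPM in members, against 12.1, 39.4 and 119 CPM in peptide cells without Sst. The ranges overlapped and 7 of 8 samples were higher (log2 fold change 1.99 ± 0.38, SE, edgeR adjusted p = 0.0166, and 0.0571 without sample 5). Ptprn, a granule membrane protein, was higher in 8 of 8 samples at 777 ± 176 CPM in members and 378 ± 112 CPM in peptide cells without Sst (SD, n = 8), with an edgeR adjusted p of 0.00682. Syt4, a synaptotagmin of granules, was lower in 8 of 8 samples at 310 ± 121 CPM in members and 704 ± 289 CPM in peptide cells without Sst (SD, n = 8), with an edgeR adjusted p of 0.0166 and of 0.0571 without sample 5. Resp18, a granule protein of endocrine cells and neurons, was lower in 7 of 8 samples, from 189 through 396 to 963 CPM in members, against 746, 948 and 1439 CPM in peptide cells without Sst (edgeR adjusted p = 0.0181, and 0.0637 without sample 3), and was singled out after its values had been seen, as was Dlx6 in what follows.

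Transcription factor genes had 3 higher and 2 lower of 24 tested, where 1.02% of all genes were called higher and 0.873% lower. Meis2 ranged from 302 through a median of 463 to 677 CPM in members, against 81.4, 191 and 329 CPM in peptide cells without Sst. The log2 fold change was 1.34 ± 0.24 (SE, edgeR adjusted p = 0.0115, higher in 8 of 8 samples). Bcl11b was higher by 1.14 ± 0.19 on the log2 scale (SE, edgeR adjusted p = 0.0109), and Dlx6 by 1.71 ± 0.40 (SE, edgeR adjusted p = 0.0451). The call of Dlx6 was lost with any of the 8 samples left out, at up to 0.140 without sample 1. Isl1, a LIM homeobox gene of striatal neurons, ranged from 0 through 1.08 to 53.0 CPM in members, against 35.3, 96.3 and 169 CPM in peptide cells without Sst, and was lower in 8 of 8 samples with an edgeR adjusted p of 0.0473, and of 0.132 without sample 3.

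Of 21 calcium-binding protein genes tested, 2 were higher and 2 lower, beside 1.02% and 0.873% of all genes. Calb1, the calbindin gene, ranged from 92.3 through a median of 186 to 272 CPM in members, against 293, 498 and 785 CPM in peptide cells without Sst, with no overlap. The log2 fold change was -1.52 ± 0.21 (SE, edgeR adjusted p = 0.00311). Hpca, the hippocalcin gene, averaged 428 ± 113 CPM in members and 855 ± 142 CPM in peptide cells without Sst (SD, n = 8, edgeR adjusted p = 0.00311), and Hpcal4, a relative of it, was higher by 0.85 ± 0.15 on the log2 scale (SE, edgeR adjusted p = 0.0109), with the same sign as the mean difference in 8 of 8 samples for each gene.

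Among structural and adhesion genes, Mtap2, Pcdh19 and Pcdh8 were higher in members and Nefm and Cdh13 were lower. Nefm, a neurofilament gene, averaged 184 ± 272 CPM in members and 816 ± 294 CPM in peptide cells without Sst (SD, n = 8), lower in 8 of 8 samples (edgeR adjusted p = 0.00402), while Mtap2, the MAP2 gene of dendrites, averaged 765 ± 166 CPM in members and 385 ± 74.3 CPM in peptide cells without Sst (SD, n = 8) and was higher in 8 of 8 (edgeR adjusted p = 0.00535). Of 40 axon guidance and adhesion genes tested, 2 were higher and 1 was lower, beside 1.02% and 0.873% of all genes. The protocadherin genes Pcdh19 and Pcdh8 were higher by 2.14 ± 0.30 and 1.56 ± 0.27 on the log2 scale (SE, edgeR adjusted p = 0.00322 and 0.0109). Cdh13, which encodes a cadherin anchored to the membrane by a lipid, was lower at 50.5 ± 85.0 CPM in members and 325 ± 110 CPM in peptide cells without Sst (SD, n = 8), with an edgeR adjusted p of 0.0175 and of 0.0535 without sample 5.

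Among channel and receptor genes a few passed, where 1.89% of all genes tested were called. Of 26 potassium channel genes 1 was higher and 1 was lower: Kcnip2, a partner of A-type channels, by 1.56 ± 0.34, and Kcnc1, a channel of fast-firing neurons, by -1.28 ± 0.27 (log2 fold change ± SE, edgeR adjusted p = 0.0301 and 0.0296). Without single samples these reached 0.0944 (sample 5) and 0.0826 (sample 6). Cacna2d1, an auxiliary calcium channel subunit, was the only one of 28 sodium, calcium and related channel genes to pass, at 250 ± 63.3 CPM in members and 96.7 ± 24.0 CPM in peptide cells without Sst (SD, n = 8, edgeR adjusted p = 0.0109). Htr2c was the only one of 8 monoamine and related receptor genes, at 103 through a median of 135 to 298 CPM in members, against 0, 43.4 and 137 CPM in peptide cells without Sst (edgeR adjusted p = 0.0433, and 0.109 without sample 6). None of 15 peptide receptor, 17 glutamate receptor and 18 GABA and glycine receptor genes passed.

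Immediate early genes, which neurons switch on within minutes of activity, had 2 higher and 0 lower of 12 tested, beside 1.02% and 0.873% of all genes. Their median log2 fold change was 1.24, against -0.04 over all genes. Junb averaged 206 ± 62.0 CPM in members and 85.0 ± 39.8 CPM in peptide cells without Sst (SD, n = 8, edgeR adjusted p = 0.0435), and Egr4 averaged 138 ± 47.6 CPM in members and 37.8 ± 24.0 CPM in peptide cells without Sst (SD, n = 8) with the same adjusted p. Junb lost its call with any of the 8 samples left out, at up to 0.127 without sample 3, and Egr4 passed in 1 of the 8, at up to 0.111 without sample 5. The list as a whole summed to 159 through a median of 764 to 1186 CPM in members, against 106, 600 and 837 CPM in peptide cells without Sst. In Sst cells without the 3 peptide genes it summed to 307 through 985 to 1348 CPM. Members compared with that class had 0 of 13 early genes passing with edgeR. The median log2 fold change there was -0.30, against 0.10 over all genes tested.

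Genes of the astrocyte list moved in opposite directions. Aldoc, an aldolase of glycolysis, ranged from 1.89 through a median of 35.2 to 139 CPM in members, against 260, 504 and 772 CPM in peptide cells without Sst, lower in 8 of 8 samples (log2 fold change -3.88 ± 0.52, SE, edgeR adjusted p = 0.00311). Slc1a2, a glutamate transporter, was higher in 7 of 8 samples (log2 fold change 1.67 ± 0.36, SE, edgeR adjusted p = 0.0327, and 0.103 without sample 6). Of the 9 astrocyte genes 3 had counts in members and 4 in peptide cells without Sst, and the list summed to 79.6 to 523 CPM in members, against 277 to 855 CPM in peptide cells without Sst. Aldh1l1, Aqp4, Gja1, Gjb6 and Slc1a3 had 0 counts in both classes, and Gfap had 0 counts in members and some in peptide cells without Sst, with no positive cell. The part of astrocyte RNA in these values was not tested.

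Besides Pdyn, the genes with the largest fold changes on the higher side had mean levels from 0.358 CPM (Gpc4) to 66.6 CPM (Spink8) in peptide cells without Sst. Gpc4, a glypican of the cell surface, ranged from 9.10 through a median of 28.1 to 44.7 CPM in members, against 0, 0 and 2.03 CPM in peptide cells without Sst (log2 fold change 6.21 ± 1.09, SE, edgeR adjusted p = 0.0110). The groups did not overlap, but Gpc4 had only 7 counts in peptide cells without Sst. It passed in 4 of the 8 fits without 1 sample, at an edgeR adjusted p of up to 0.0341, and was not tested in the rest. Crym, which encodes the thyroid hormone binding protein mu-crystallin, ranged from 125 through 403 to 445 CPM in members, against 0, 16.2 and 113 CPM in peptide cells without Sst, again without overlap (log2 fold change 4.51 ± 0.76, SE, edgeR adjusted p = 0.0105). Others were the chloride channel gene Ano2, the axonemal dynein gene Dnahc5, Expi, Fam126a, Spata13, Galntl4, Arhgap6, the protease inhibitor gene Spink8 and the histone gene Hist1h2bc, which may share reads with near-identical copies and is uncertain. They had log2 fold changes from 3.25 (Spink8) to 5.88 (Ano2) and edgeR adjusted p from 0.0109 (Arhgap6) to 0.0449 (Galntl4). Of these, Dnahc5, Arhgap6 and Spink8 passed with any of the 8 samples left out, and the others reached adjusted p of up to 0.113 (Fam126a without sample 3).

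The genes with the largest fold changes on the lower side had mean levels from 0.633 CPM (Sgcz) to 50.5 CPM (Cdh13) in members. Synpr, the synaptoporin gene of synaptic vesicles, averaged 21.7 ± 43.1 CPM in members and 152 ± 75.9 CPM in peptide cells without Sst (SD, n = 8, log2 fold change -4.71 ± 0.90, SE, edgeR adjusted p = 0.0166, and 0.0534 without sample 5). Syt2, a fast synaptotagmin, averaged 1.96 ± 3.35 CPM in members and 36.3 ± 28.8 CPM in peptide cells without Sst (SD, n = 8, edgeR adjusted p = 0.0498, and 0.138 without sample 6). Mfsd4, a membrane transporter gene, averaged 6.03 ± 6.74 CPM in members and 108 ± 56.5 CPM in peptide cells without Sst (SD, n = 8, edgeR adjusted p = 0.0115) and passed with any of the 8 samples left out. Dkk3, a secreted protein gene, Haus7, Sgcz, Btbd11, Fads3, Gm13112, 4933431E20Rik and 6330512M04Rik had log2 fold changes from -6.42 (Dkk3) to -4.73 (Fads3) and edgeR adjusted p from 0.0181 (4933431E20Rik) to 0.0498 (Fads3), and each passed in at most 5 of the 8 fits without 1 sample, with adjusted p of up to 0.121 (Fads3 without sample 6).

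Some abundant genes had small errors and passed in each of the 8 fits without 1 sample. They were picked out after their values had been seen. Sez6, a membrane protein gene of dendrites, ranged from 381 through a median of 526 to 1246 CPM in members, against 57.7, 130 and 237 CPM in peptide cells without Sst (log2 fold change 2.18 ± 0.18, SE, edgeR adjusted p = 7.77e-05). Itm2c, a transmembrane protein gene, ranged from 2246 through 3068 to 4689 CPM in members, against 1047, 1371 and 1852 CPM in peptide cells without Sst (log2 fold change 1.29 ± 0.13, SE, edgeR adjusted p = 0.000255). Neither gene overlapped between the classes. Wfs1 averaged 1400 ± 361 CPM in members and 363 ± 202 CPM in peptide cells without Sst (SD, n = 8, edgeR adjusted p = 0.00311), with no overlap. Ncdn and Fkbp1a, an immunophilin gene, were higher by 1.76 ± 0.23 and 1.27 ± 0.16 on the log2 scale (SE), each in 8 of 8 samples at an edgeR adjusted p of 0.00311 or less.

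**Figure D5:**
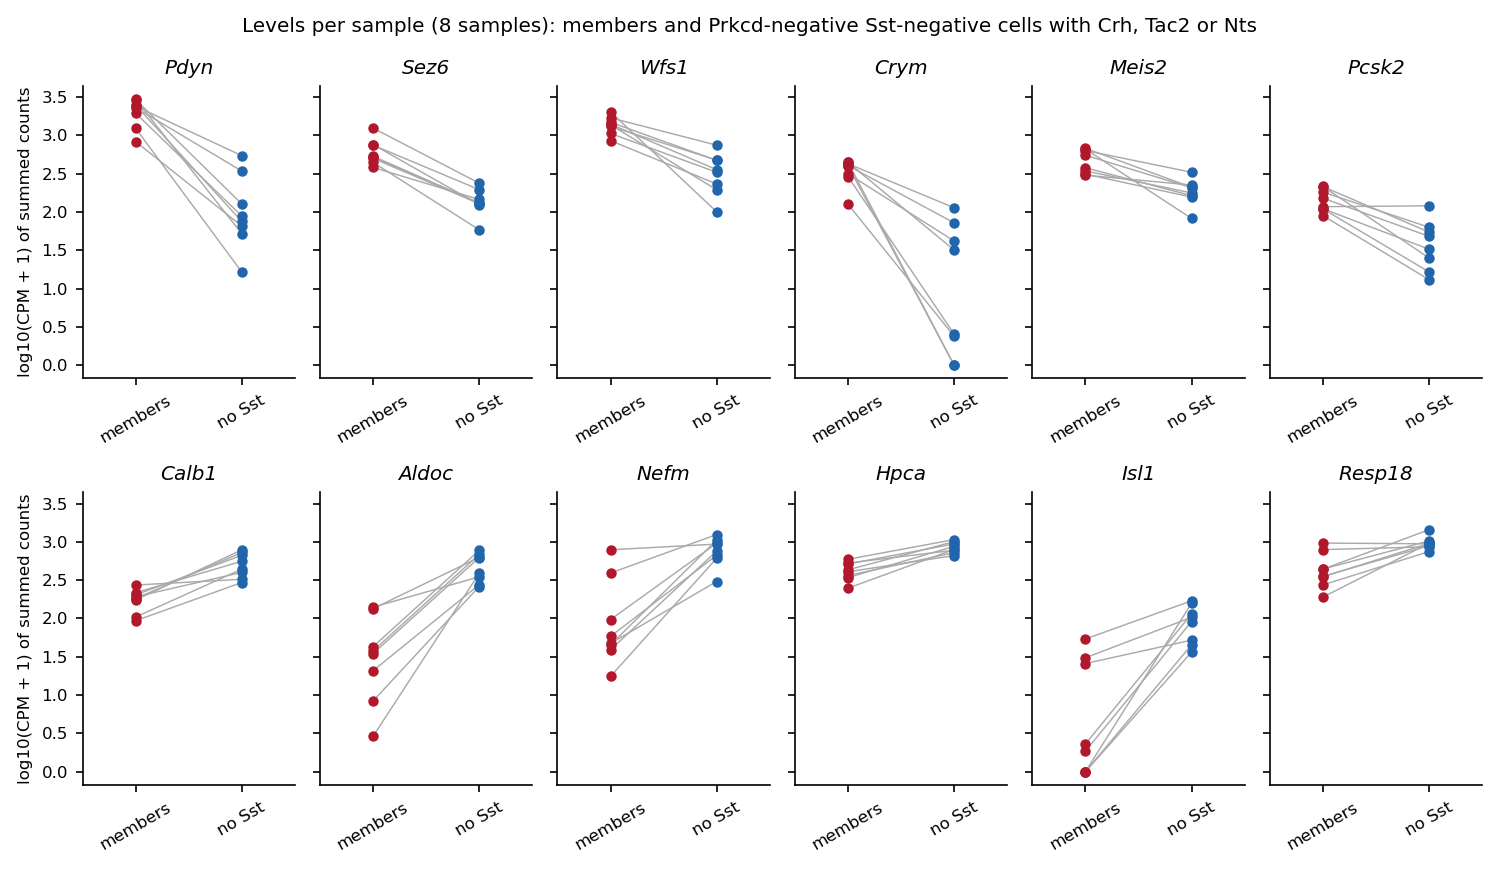
Level of 12 genes in counts summed per sample, as log10(CPM + 1), in members (red, left) and peptide cells without Sst (blue, right) of the 8 samples compared, with lines joining the same sample. The first 6 genes were higher in members and the last 6 lower, and Pdyn reached 829 CPM or more in members and 543 CPM at most in the other class.

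Of the 55 named genes that passed in this comparison, 25 passed in each of the 8 fits without 1 sample. All 55 passed with DESeq2, but it called 375 genes higher and 463 lower here, so that pass is a weak check. Without sample 5 the edgeR counts were 35 higher and 25 lower, without sample 3 they were 37 and 25, without sample 6 they were 40 and 32, and without sample 8 they were 54 and 39. Without sample 1 the lower count was 42, and without sample 2 it was 45. When cells positive for the oligodendrocyte gene Mbp were left out, 41 members and 53 peptide cells without Sst of 7 samples were left, and 4 genes were higher and 2 lower, among them Pdyn (log2 fold change 3.75, edgeR adjusted p = 0.00311), Sez6 and Wfs1. All 149 of the 156 calls that could be refitted kept their direction. Mbp was positive in 33.3% of members, 26.8% of Sst cells without the 3 peptide genes, 22.4% of peptide cells without Sst and 29.4% of the Prkcd-positive, Sst-negative neurons.

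Within the members, cells positive for 2 or 3 of the peptide genes did not differ from cells positive for 1 in any gene that passed. Samples 1, 2, 3 and 6 entered, with 17 cells positive for 2 or 3 and 19 cells positive for 1, and of 6448 genes 0% were called higher and 0% lower by edgeR, while 80 and 91 had an unadjusted p under 0.05 and DESeq2 called 51 and 35. Pdyn averaged 2502 ± 824 CPM in cells with 2 or 3 and 2364 ± 517 CPM in cells with 1 (SD, n = 4), a log2 fold change of 0.06 ± 0.25 (SE, edgeR adjusted p = 1). Sst, which the rule used, averaged 3503 CPM in cells with 2 or 3 and 3725 CPM in cells with 1.

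The gene nearest to the threshold there was Ncdn, singled out after its values had been seen. It averaged 2959 ± 462 CPM in cells with 2 or 3 peptide genes and 1256 ± 240 CPM in cells with 1 (SD, n = 4). The ranges, 2281 to 3321 CPM in cells with 2 or 3 and 948 to 1495 CPM in cells with 1, did not overlap, and the log2 fold change was 1.25 ± 0.18 (SE, edgeR adjusted p = 0.130). Chga, which encodes the granule protein chromogranin A, averaged 752 ± 278 CPM in cells with 2 or 3 and 275 ± 112 CPM in cells with 1 (SD, n = 4), higher in 4 of 4 samples with an edgeR adjusted p of 0.533.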

How the data were processed

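The deposited table holds raw counts for 22601 gene symbols and 91 ERCC spike-ins in 829 cells, and a further table assigns each cell its animal number and date field. The build was NCBIM37 and Seurat was named as a tool, per the submitters' processing notes. Not given in the sources used here are the aligner, annotation, strand, handling of multi-mapping reads and any use of molecular identifiers. Spike-ins were left out, no cell was removed (1 member had under 20000 counts) and no doublet caller was run.

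Samples with at least 3 cells of both classes gave 1 sum of counts per class, and the sums were tested with edgeR 4.0.16 in R 4.3.3 (TMM, filterByExpr, quasi-likelihood test, Benjamini-Hochberg over all genes tested other than the 10 that set the classes). The sample was a block in the fits, since both classes come from the same samples. Fold changes come from that fit and are not ratios of the mean CPM printed. Shares of positive cells and depths had an exact permutation test that flips signs over samples (two-sided), with Benjamini-Hochberg adjustment over genes positive in at least 5% of either class. DESeq2 1.42.0, scipy 1.17.1, pandas 2.3.3, numpy 2.4.6, matplotlib 3.10.9 and Python 3.11.15 were also used. The fits were tested on simulated counts.

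The members and the 24 lists (540 genes, 518 in the table, 2 by an older symbol) were chosen with earlier results of these data known. Genes named were up to 12 per side with the largest fold among those that passed, at a mean of at least 10 CPM and the same direction in every sample, up to 3 passing genes per list, and Sst, Crh, Tac2, Nts, Pdyn, Penk, Cartpt, Npy and Prkcd. Prkcd was not tested. Some genes that met these rules are not reported here. Alternatives planned were no sample block, DESeq2, no filter, median-of-ratios scaling, a positive cell at 3 per 10000 or at 1 count, at least 5 cells per class, counts thinned to 50000 per cell, cells under 20000 counts or positive for Mbp left out, equal cell numbers, counts added up per date field or per animal number, and each sample left out. Chosen after the data were seen were at least 1 cell per class, Nos1-positive cells left out, Mbp-positive cells left out and thinning in the comparison with peptide cells without Sst, and counting the class-setting genes in the adjustment.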

Additional observations from a re-analysis of the deposited data

Results flagged for a closer look

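Of 74 groups of 4 to 10 sample values, 5 held a sample whose gap to its nearest neighbour was large for the range of the group, and chance gives about 1 in 20. Nos1 in Sst cells without the 3 peptide genes was 545 CPM in sample 5, and the next highest sample had 192 CPM. The other 4 were differences in log2(CPM + 1), members minus peptide cells without Sst. For Dkk3 the difference in sample 3 was -0.94, and the nearest was -3.53. For Egr4 the difference in sample 2 was 6.66, and the nearest was 2.30. For Htr2c the difference in sample 9 was 6.73, and the nearest was 3.02. For Slc1a2 the difference in sample 3 was -1.19, and the nearest was 1.08. These 4 genes lost their call in at least 1 of the fits without 1 sample.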

How the results depend on the processing

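Between members and Sst cells without the 3 peptide genes, where 0 genes passed in either direction, DESeq2 called 47 higher and 41 lower, no filter on low counts 17 and 14, and a threshold of 3 counts per 10000 gave 12 and 1. Without the sample as a replicate block 2 were higher and 1 was lower, sums per date field gave 4 lower, sums per animal number 1 lower, and counting the class-setting genes in the adjustment 1 lower, which was Nos1. The class-setting genes differ by the rule, so that call of Nos1 is no added support. With 1 sample left out there were 0 to 1 higher and 0 to 1 lower, 1 and 1 without sample 4 and 0 and 1 without sample 2. Against peptide cells without Sst, where 84 were higher and 72 lower, DESeq2 called 375 and 463, no filter 122 and 129, 3 counts per 10000 gave 110 and 135, at least 5 cells per class 61 and 45, at least 1 cell 52 and 48, no replicate block 99 and 56, and leaving out Mbp-positive cells 4 and 2. With 1 sample left out there were 35 to 79 higher and 25 to 70 lower. The setting of at least 5 cells per class removed only sample 2 there, so it was the same fit as that without sample 2. Between members with 2 or 3 peptide genes and with 1, where 0 passed, DESeq2 called 51 and 35, no filter 5 and 2, no replicate block 0 and 0, and each sample left out 0 to 0. At least 5 cells per class left 1 sample there and gave no value. In the share tests 0 genes passed under each alternative run. With 1 sample left out the 0 to 0 was fixed in advance, since 5 samples allow no exact sign-flip permutation p under 0.0625. The difference in gene counts per cell ran from -686 to 35177 with 1 sample left out, and that in detected genes from 29.3 to 516. Against Sst cells without the 3 peptide genes, the fold change of Penk changed sign in several alternatives. It was 0.39 with at least 1 cell per class, 0.12 with equal cell numbers and 0.35 by date field. Without Nos1-positive cells it was 0.13, but sample 6 also dropped out there and 5 samples were left. With 1 sample left out it was -0.72 to 0.30, with 0.04, 0.08 and 0.30 without samples 2, 5 and 6. Positive at 1 count, Cartpt was 1.28 and Tac1 1.87, and the share difference of Cartpt ran from -5.71 to 0.80 points with 1 sample left out. Within members, Pdyn was -0.53 at 3 counts per 10000 and -0.24 without sample 3, and Penk was -0.79 to 0.43 with 1 sample left out, with 0.43 and 0.12 without samples 1 and 3. The causes were not tested. Of the other values of single genes, 1003 kept direction and side of the threshold, 252 kept direction and no longer passed, and 36 kept direction and passed. Members numbered 2 to 14 per sample, which limits what shares per sample can show.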
